A study of Equus caballus with 15 samples.

Results

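Equine macrophages stimulated with IL-1ß and given conditioned medium from mesenchymal stromal cells (MSC-CM) were compared with macrophages given IL-1ß alone. The comparison rested on 6 of the 15 RNA sequencing libraries of the study, 3 with MSC-CM and 3 with IL-1ß alone, and the 3 libraries of untreated macrophages are given beside them. Of the 16932 genes listed, the 11628 that averaged 1 CPM or more in the 15 libraries were tested, where CPM is the number of reads of a gene scaled to a common library total. Replicate 3 of the IL-1ß group stood apart from the other libraries, so counts of genes, the main gene lists and the main genes are given with all 6 libraries and again without it.

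The macrophages of all groups were grown from blood mononuclear cells of a pair of young adult geldings, in medium with fetal bovine serum and 30 ng/ml of human M-CSF (macrophage colony-stimulating factor) over 5 days. The IL-1ß group then received 10 ng/ml of IL-1ß. The MSC group received the same dose of IL-1ß together with MSC-CM at 25% of the medium, and the untreated group received neither. No library of macrophages given unconditioned MSC growth medium is described. Products of the MSC therefore cannot be told apart from the added medium itself. Treatment lasted 24 h, after which the cells were washed. The labels place lysis straight after the wash, while the study describes a further day of culture before supernatants and cells were collected. The 3 MSC libraries used media of bone marrow MSC from 3 other young horses of the same breed, so their spread includes product donors. The 3 IL-1ß libraries and the 3 untreated libraries are technical replicates as the study describes them, so p-values do not measure variation between macrophage donors. How the blood of the pair was shared out among the samples is not stated.

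IL-1ß binds the IL-1 receptor, which signals through MYD88 and IRAK kinases to the transcription factor NF-kB. In macrophages this pathway is known to raise transcripts of cytokines such as IL-6 and of neutrophil-attracting CXC chemokines, and it also raises IL1B itself. Bone marrow MSC release soluble mediators, among them prostaglandin E2, IL1RN (the IL-1 receptor antagonist) and TGF-ß, and their conditioned medium is studied in horses as a joint treatment.

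IL-1ß replicate 3 differed from the other libraries in several measures. Between 28920908 and 44155364 reads lay on genes in the 6 libraries, with the smallest number in IL-1ß replicate 3. It detected 12647 genes, against 13713 and 14008 in IL-1ß replicates 1 and 2 and 14347 to 14835 in the MSC libraries. Transcripts of 67 ribosomal protein genes summed to 73366 CPM in it and to between 34639 and 52053 CPM in the other 5. Against the mean of IL-1ß replicates 1 and 2, genes spanning at least 61027 bp of the genome differed in it by a median of -0.99 on the log2 scale, and genes spanning at most 7752 bp by 0.27. The same medians in the MSC libraries lay between -0.24 and 0.19. Macrophage marker genes summed to 3483 CPM in IL-1ß replicate 3, to 6474 and 5372 CPM in IL-1ß replicates 1 and 2 and to between 4386 and 5364 CPM with MSC-CM, with MRC1 the most abundant. T cell markers were also present, at a sum of 1462 CPM in IL-1ß replicate 3, 830 and 913 CPM in replicates 1 and 2 and 1131 to 1207 CPM with MSC-CM. None of the 10 stayed under 0.1 CPM in all 6 libraries, and CD3E, a chain of the T cell receptor complex, was the most abundant at a mean of 312 CPM. Of 10 listed fibroblast and MSC markers only THY1 reached a mean of 1 CPM, and POSTN stayed under 0.1 CPM in the 6 libraries.

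MSC-CM went with small differences. No gene of 11628 (0%) passed an adjusted p of 0.05 with a fold of 2 in limma, with or without IL-1ß replicate 3, and the smallest adjusted p was 0.608 with it. At an unadjusted p of 0.05 or less, 651 genes passed with all libraries and 351 without IL-1ß replicate 3. An unadjusted p with a fold of 2 was the threshold the study set for MSC-CM. It was passed by 42 genes, 31 higher with MSC-CM (0.267% of the genes tested) and 11 lower (0.0946%). Without IL-1ß replicate 3 the number was 26, of which 6 were higher (0.0516%) and 20 lower (0.172%). In these limma fits most passing genes were thus higher with MSC-CM when that library was included and lower when it was not. With RLE size factors in place of plain CPM, 28 genes passed, 16 higher and 12 lower. Over all genes the median difference on the log2 scale was 0.16 with plain CPM, 0.05 without IL-1ß replicate 3 and 0.00 with RLE size factors, so medians of gene lists are given below relative to all genes. The count tests on recovered reads ran on more genes, low ones included, 16927 in DESeq2 and 13675 in edgeR. They called 2 genes (DESeq2) and 0 genes (edgeR) after adjustment, and 349 and 188 genes at the unadjusted threshold. Their calls stayed mostly higher without IL-1ß replicate 3, 233 higher and 100 lower in DESeq2 and 161 and 66 in edgeR.

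Separation of the groups gave a second description. Every MSC library lay above every IL-1ß library in 843 genes (7.25% of the genes tested) and below every one in 179 genes (1.54%). Without IL-1ß replicate 3 these numbers were 1733 (14.9%) and 723 (6.22%). They are the background for the counts of gene lists that follow. An exact permutation test of 3 against 3 libraries cannot go below p = 0.1 for a single gene, so no such test was run.

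Only 11 genes passed the unadjusted threshold in both settings, 9 lower and 2 higher with MSC-CM. The lower ones included the cytokines IL1B, IL6 and CSF3 and the chemokines CXCL6 and PPBP, with mean levels between 2.27-fold and 4.21-fold lower than with IL-1ß alone. The plot of these genes by library shows that each separated all 3 MSC libraries from all 3 IL-1ß libraries, and that IL-1ß replicate 3 lay with its group in each. That separation is partly what the threshold selects.

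**Figure D1:**
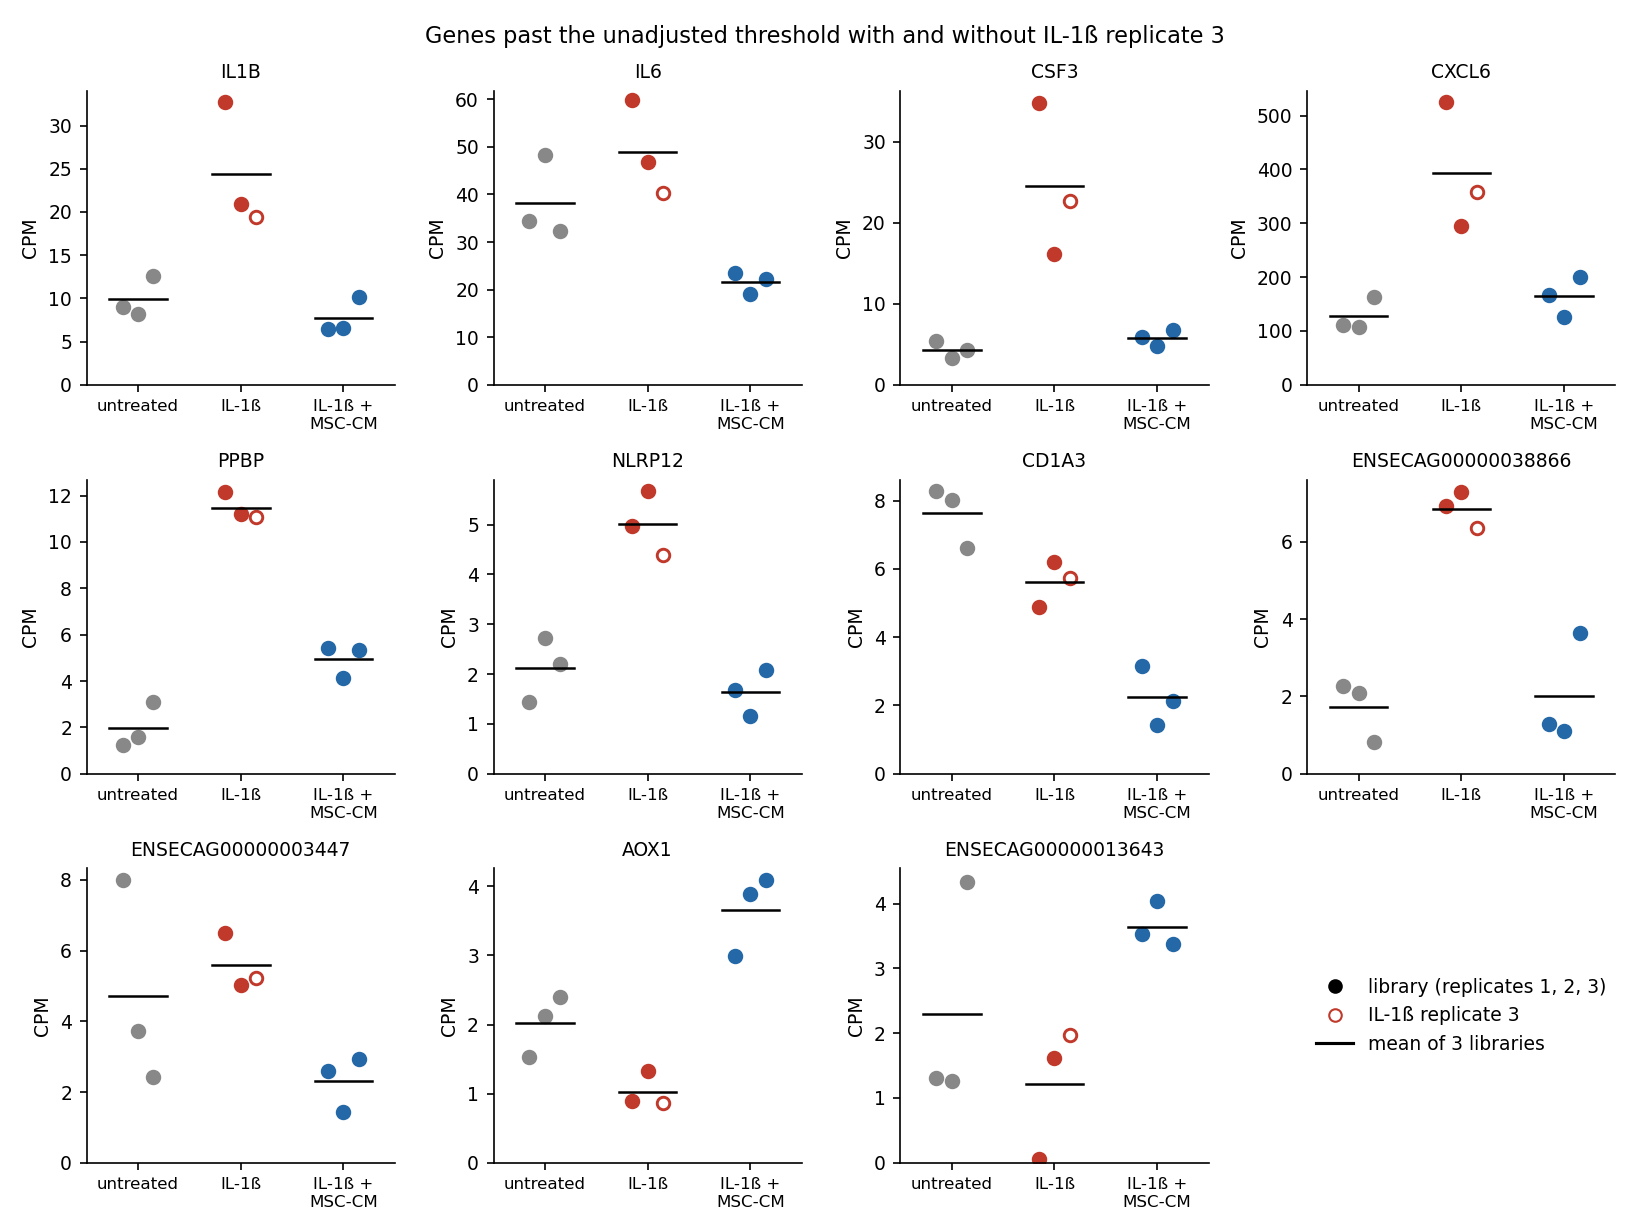
Level in CPM (vertical axis, linear from 0) of the 11 genes past the unadjusted threshold with and without IL-1ß replicate 3, in the untreated, IL-1ß and MSC-CM libraries. Points are libraries, the open circle is IL-1ß replicate 3 and lines are means of 3 libraries. In 9 panels all MSC-CM points lie below all IL-1ß points, and in AOX1 and ENSECAG00000013643 all lie above.

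Among the cytokines, IL1B (ENSECAG00000000051, EquCab3.0 chr15:16418738-16444800) encodes IL-1ß itself, made by macrophages as a precursor. It was measured at 6.43, 6.61 and 10.1 CPM with MSC-CM and at 32.7, 21.0 and 19.5 CPM with IL-1ß alone. The groups did not overlap, and the MSC libraries lay near the untreated ones, which held 8.96, 8.19 and 12.6 CPM. On the log2 scale IL1B differed by -1.53 ± 0.67 (SE, limma, unadjusted p = 0.0392, adjusted p = 0.705) and by -1.67 without IL-1ß replicate 3. The threshold held in 2 of the 6 fits that left out a single library.

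IL6 (ENSECAG00000016482, chr4:54607176-54611578) encodes a cytokine of the acute phase response. Its level was 23.6, 19 and 22.2 CPM with MSC-CM against 59.8, 46.7 and 40.4 CPM with IL-1ß alone. The MSC libraries were also below the untreated libraries, at 34.4, 48.2 and 32.3 CPM. limma gave a log2 fold change of -1.13 ± 0.51 (SE, unadjusted p = 0.0441) and -1.26 without IL-1ß replicate 3 (unadjusted p = 0.0448), and the threshold held in 1 of the 6 fits with a library left out, the fit without IL-1ß replicate 3.

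CSF3 (ENSECAG00000008668, chr11:22538002-22540571), the granulocyte colony-stimulating factor that drives neutrophil production, showed the largest difference of the 11. The MSC libraries held 5.96, 4.76 and 6.74 CPM and the IL-1ß libraries 34.7, 16.1 and 22.7 CPM, a mean 4.21-fold higher with IL-1ß alone. With MSC-CM the level lay near that of untreated cells, at 5.41, 3.34 and 4.27 CPM. CSF3 had a log2 fold change of -1.85 ± 0.54 (SE, limma, unadjusted p = 0.00446) and -1.87 without IL-1ß replicate 3, and it passed the threshold in all 18 alternatives computed for it, from -2.24 to -1.57.

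Of the 22 pro-inflammatory cytokine genes tested, these 3 were the ones past the unadjusted threshold, all lower, in both settings. With all libraries 4 of the 22 lay lower without overlap and 1, TNFSF14, lay higher; without IL-1ß replicate 3 the numbers were 6 and 2. By RLE size factors 5 lay lower and 0 higher, so TNFSF14 did not separate there. The median of the list was 0.12 below that of all genes, and 0.13 below without IL-1ß replicate 3. With a single library left out it ranged from 0.02 below (IL-1ß replicate 1) to 0.16 below (MSC replicate 1). IL15, a growth factor of lymphocytes, was the remaining gene lower without overlap, at 4.39, 4.94 and 5.10 CPM against 7.92, 6.39 and 5.26 CPM. TNF and IFNG overlapped between the groups.

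Several chemokine genes were lower. Of 18 tested, a list that does not hold PPBP, 5 lay lower without overlap (27.8%) and 0 higher, both with IL-1ß replicate 3 (against 1.54% of all genes lower) and without it (against 6.22%). Only CXCL6 of the list passed the unadjusted threshold. The list median was 0.54 below that of all genes, and 0.25 below without IL-1ß replicate 3, in which the C-C chemokines CCL5, CCL3 and CCL2 were at their highest of the 6 libraries. With RLE size factors 7 of the 18 lay lower and 0 higher, beside 4.19% of all genes lower.

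CXCL6 (ENSECAG00000012742, chr3:63638101-63640268) encodes a chemokine that attracts neutrophils through CXCR2. Its level was 167, 126 and 199.8 CPM with MSC-CM, against 526, 296 and 358 CPM with IL-1ß alone. Untreated cells held 127 ± 31.6 CPM (SD, n = 3). The groups treated with IL-1ß did not overlap, while the MSC and untreated ranges did. For CXCL6 the log2 fold change was -1.24 ± 0.43 (SE, limma, unadjusted p = 0.0128) and -1.28 without IL-1ß replicate 3. It missed the threshold without IL-1ß replicate 1 and without MSC replicate 2, and held it in the other 4 fits with a library left out.

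PPBP (ENSECAG00000012702, chr3:63628303-63629198), known mainly as a platelet chemokine, was measured at 5.41, 4.14 and 5.36 CPM with MSC-CM against 12.1, 11.2 and 11.1 CPM with IL-1ß alone. Untreated libraries were lower than both, at 1.23, 1.60 and 3.10 CPM. For PPBP the log2 fold change was -1.07 ± 0.40 (SE, limma, unadjusted p = 0.0200) and -1.09 without IL-1ß replicate 3. Summed platelet markers, PPBP included, were 30.8 to 38.3 CPM with MSC-CM and 33.8 to 45.7 CPM with IL-1ß alone.

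CXCL6 and PPBP are neighbours on chromosome 3, in a run of 5 listed genes over 250926 bp that begins with CXCL1 and ends with CXCL8. The run was singled out after its values were seen. CXCL1 (chr3:63470014-63586177) encodes another CXCR2 ligand. It was measured at 729, 724 and 858 CPM with MSC-CM and at 1415, 989 and 1128 CPM with IL-1ß alone. The difference was -0.60 on the log2 scale (limma, unadjusted p = 0.0379, and 0.0534 without IL-1ß replicate 3). CXCL8 (chr3:63717745-63720939), which encodes IL-8, was measured at 395, 402 and 645 CPM against 958, 686 and 854 CPM, a difference of -0.82 on the log2 scale (unadjusted p = 0.0567, and 0.0959 without that library). All 4 tested genes of the run were lower without overlap. The fifth gene, ENSECAG00000012560, was under 1 CPM in each of the 9 libraries and was not tested. These genes are close paralogs, and how reads shared between copies were counted is not stated.

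CXCL10 and CXCL11, interferon-induced ligands of CXCR3, were the other chemokines that did not overlap. CXCL10 was at 26.0, 29.5 and 30.7 CPM with MSC-CM and at 67.4, 48.2 and 32.7 CPM with IL-1ß alone, where replicate 3 was the lowest and closest to the MSC libraries. CXCL10 differed on the log2 scale by -0.71 (limma, unadjusted p = 0.0363) and by -0.97 without IL-1ß replicate 3 (unadjusted p = 0.00638). CXCL11 was at 13.6, 12.2 and 18.2 CPM against 26.7, 29.7 and 24.8 CPM, a difference of -0.85 on the log2 scale (unadjusted p = 0.0487), and of -0.91 without that library (unadjusted p = 0.0583). Both were several times higher in untreated cells, at 98.8 to 175 CPM and at 55.7 to 100.3 CPM, so the MSC libraries were farther from untreated cells than the IL-1ß libraries were.

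NLRP12 (ENSECAG00000017662, chr10:23266238-23296935) encodes an NLR protein of myeloid cells known as a regulator of NF-kB signaling. Its level was low but separated the groups clearly, with 1.68, 1.16 and 2.08 CPM under MSC-CM and 4.98, 5.68 and 4.39 CPM under IL-1ß alone. Untreated cells held 1.43, 2.72 and 2.19 CPM. limma gave a log2 fold change of -1.2 ± 0.22 (SE, unadjusted p = 0.000104, adjusted p = 0.608) and -1.27 without IL-1ß replicate 3, and the threshold held in all 17 alternatives computed.

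CD1A3 (ENSECAG00000035085, chr5:35791656-35873600) belongs to the CD1 family, which presents lipid antigens. With MSC-CM it was at 3.17, 1.41 and 2.13 CPM, with IL-1ß alone at 4.89, 6.22 and 5.74 CPM and at 8.27, 8.02 and 6.61 CPM in untreated cells. The IL-1ß libraries thus lay between the other groups. For CD1A3 the log2 fold change was -1.06 ± 0.43 (SE, limma, unadjusted p = 0.0275) and -1.05 without IL-1ß replicate 3 (unadjusted p = 0.0497), and the threshold held in 3 of the 6 fits with a library left out. The files list 3 CD1A genes of similar sequence, so the share of reads each received is uncertain.

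Another 2 of the lower genes carry only an identifier in the files. ENSECAG00000038866 (chr19:1246811-1249286) was at 1.29, 1.11 and 3.65 CPM with MSC-CM and at 6.92, 7.29 and 6.36 CPM with IL-1ß alone. It differed by -1.48 ± 0.34 on the log2 scale (SE, limma, unadjusted p = 0.000791) and by -1.52 without IL-1ß replicate 3. Its untreated level was 0.812 to 2.27 CPM. ENSECAG00000003447 (chr31:2936887-2976415) was at 2.58, 1.44 and 2.93 CPM against 6.50, 5.03 and 5.22 CPM, a difference of -1.01 on the log2 scale and of -1.05 without that library, past the threshold in 4 of the 6 fits with a library left out. Untreated libraries were spread from 2.43 to 7.99 CPM. Of the 9 lower genes, the MSC mean lay within the untreated range for 2, below it for 4 and above it for 3.

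AOX1 (ENSECAG00000018147, chr18:75509053-75659691), an aldehyde oxidase that acts on aldehydes and nitrogen heterocycles, was higher with MSC-CM. The MSC libraries held 2.99, 3.88 and 4.10 CPM, the IL-1ß libraries 0.889, 1.33 and 0.864 CPM and the untreated libraries 1.53, 2.13 and 2.40 CPM. All MSC libraries were above all others of the 9, a mean 3.56-fold higher than with IL-1ß alone. On the log2 scale AOX1 differed by 1.2 ± 0.20 (SE, limma, unadjusted p = 5.37e-05, adjusted p = 0.608) and by 1.14 without IL-1ß replicate 3, and the threshold held in all 18 alternatives. DESeq2 on recovered reads gave AOX1 an adjusted p of 0.00879, with a difference of 1.66 on the log2 scale. With edgeR on the same reads the difference was 1.70 and the adjusted p 0.794. The difference was 1.65 in DESeq2 without IL-1ß replicate 3, with an adjusted p of 0.123 and 0 genes called.

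ENSECAG00000013643 (chr1:161850764-161864805), the other higher gene, was at 3.53, 4.04 and 3.37 CPM with MSC-CM and at 0.0556, 1.61 and 1.97 CPM with IL-1ß alone. Untreated libraries held 1.30, 1.26 and 4.33 CPM, the last above every MSC library. Its log2 fold change was 1.2 with all libraries, 1.48 without IL-1ß replicate 3 and 0.74 without IL-1ß replicate 1, the lowest of the 6. With all libraries it missed the unadjusted threshold in DESeq2 (unadjusted p = 0.0734) and edgeR (unadjusted p = 0.0908). It lies 36417 bp from TRAV24, a T cell receptor alpha segment. ENSECAG00000040533, which passed only without IL-1ß replicate 3, lies 85911 bp from TRAV24 and was at 2.02, 2.96 and 2.25 CPM against 0.195, 1.33 and 0.830 CPM. The neighbourhood was noticed after the values were seen, and the summed T cell markers given above were also higher in the MSC libraries than in IL-1ß replicates 1 and 2. Their part in these differences was not tested.

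A further 31 genes passed only with IL-1ß replicate 3 in the comparison, and 29 of them were higher with MSC-CM. In 26 of these 29, IL-1ß replicate 3 was the lowest of the 6 libraries, and in 10 every MSC library was also above both other IL-1ß libraries. FLI1, an ETS transcription factor, shows the pattern, with 54.4, 84.7 and 79.9 CPM under MSC-CM and 64.8, 51.0 and 10.6 CPM under IL-1ß alone. Its log2 fold change was 1.09 with all libraries and 0.31 without replicate 3. STK26, a kinase, had a log2 fold change of 1.2 that was 0.40 without it. CCR4, a chemokine receptor of T cells, was at 18.0, 20.9 and 18.7 CPM against 14.3, 12.4 and 3.25 CPM, and its log2 fold change went from 1.08 to 0.49. KCNK13, a potassium channel, went from 1.30 to 0.85 and CRIM1, a transmembrane BMP regulator, from 1.12 to 0.84, and both separated the groups in both settings.

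GNGT2, a G protein gamma subunit, was lower and passed only with replicate 3, at 2.97, 0.797 and 1.97 CPM against 4.64, 4.24 and 8.47 CPM. Its log2 fold change of -1.24 became -0.98 without that library, just inside the fold of 2. The other lower gene of this kind was ENSECAG00000028885, which went from -1.14 to -0.61.

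Leaving out IL-1ß replicate 3 brought in 15 genes, 11 lower and 4 higher. CRYAB, a small heat shock protein, was at 11, 5.55 and 5.43 CPM with MSC-CM and at 30.9 and 19.1 CPM in IL-1ß replicates 1 and 2, but at 2.18 CPM in replicate 3. Its log2 fold change was -0.67 with all libraries and -1.67 without replicate 3. A2ML1, a protease inhibitor, followed with -0.74 and -1.29, at 78.1, 40.7 and 149.5 CPM against 248, 149.7 and 60.03 CPM. AIM2, a sensor of cytosolic DNA, was at 1.09, 1.08 and 1.90 CPM against 6.06, 2.12 and 0.864 CPM. DLL1, a Notch ligand, FER, a tyrosine kinase, and GAS6, a ligand of the TAM receptors, were lower in the same way. Of the 4 higher genes TLX2 and TMEM91 were highest of all in IL-1ß replicate 3, at 4.46 and 9.40 CPM. All 57 genes past in either setting had the same sign in both.

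**Figure D2:**
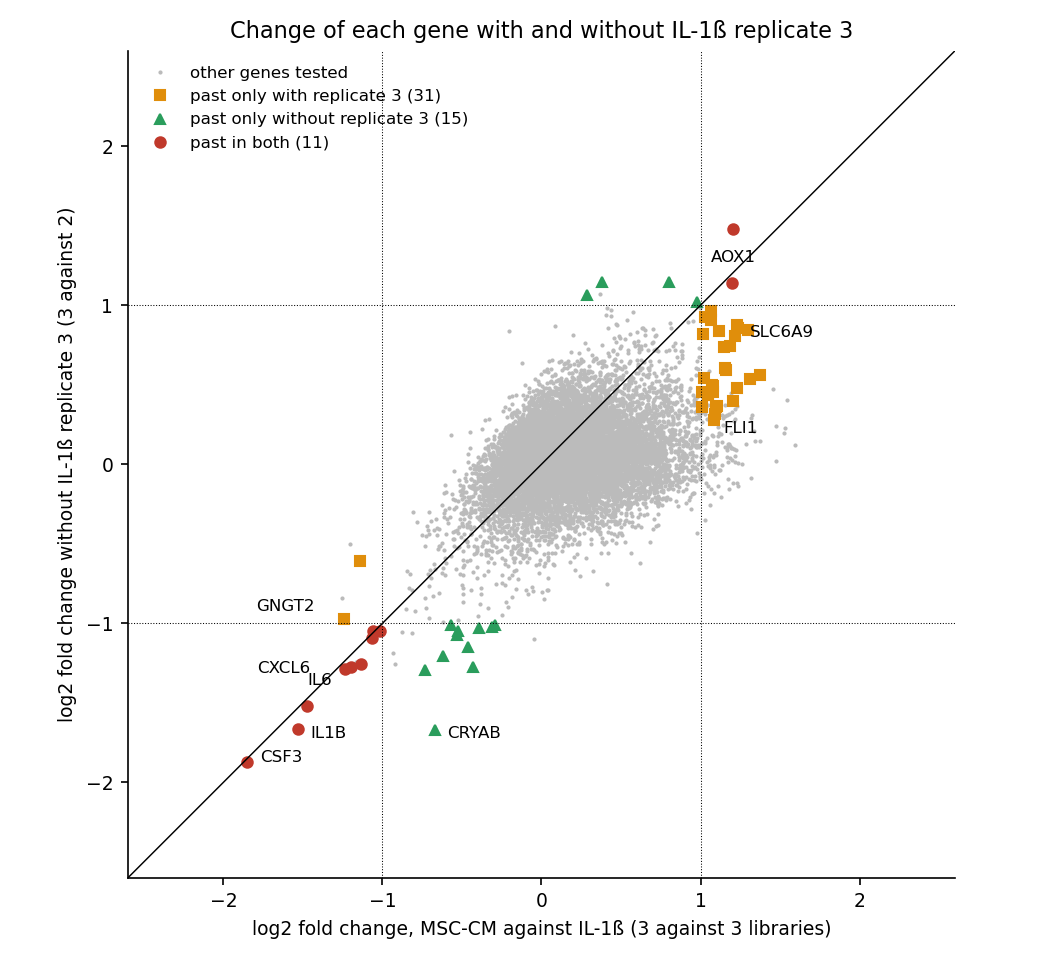
Log2 fold change of each of 11628 genes, MSC-CM against IL-1ß, with all 6 libraries (horizontal) and without IL-1ß replicate 3 (vertical). The diagonal marks equal values and dotted lines a fold of 2. The 11 genes past in both settings lie near the diagonal, while the 31 past only with replicate 3 lie mostly at the right below the upper dotted line and the 15 past only without it mostly below the lower one.

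Members of the IL-1 receptor and NF-kB pathway differed little. None of 42 tested genes passed the unadjusted threshold in either setting. With all libraries 5 lay higher without overlap (11.9%) and 2 lower (4.76%), and the list median was 0.04 above that of all genes, or 0.04 below without IL-1ß replicate 3, where 7 lay higher and 4 lower. With RLE size factors the split was the other way, with 1 higher and 5 lower. IL1RN, the natural antagonist of the IL-1 receptor, was lower, at 312, 312 and 354 CPM against 421, 460.5 and 447 CPM. limma gave a log2 fold change of -0.44 ± 0.19 (SE, unadjusted p = 0.0330), with unadjusted p = 0.0562 without IL-1ß replicate 3. The MSC and untreated ranges overlapped, and a fold of 2 was not reached. TRAF1, an adaptor of TNF receptors, was at 173, 225 and 205 CPM against 161, 151 and 126 CPM. IKBKB, a kinase that releases NF-kB, was at 79.0, 83.6 and 85.2 CPM against 72.2, 77.1 and 42.6 CPM. Its log2 fold change of 0.41 was 0.14 without replicate 3.

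Among 49 type I interferon stimulated genes, 0 passed the unadjusted threshold in either setting. The genes that did not overlap were all lower with all libraries, 3 of 49 (6.12%, against 1.54% of all genes) and 0 higher, and 11 lower (22.4%) against 4 higher without IL-1ß replicate 3. With RLE size factors 11 lay lower and 0 higher. The list median was 0.22 below that of all genes with all libraries and 0.14 below without replicate 3. IRF7, a transcription factor of the interferon response, was at 77.5, 66.8 and 74.8 CPM with MSC-CM and at 95, 99.1 and 159 CPM with IL-1ß alone, where replicate 3 was the highest. The difference was -0.64 ± 0.20 on the log2 scale (SE, limma, unadjusted p = 0.00629) and -0.41 without that library. OASL and OAS1, of the oligoadenylate synthetase family that senses viral RNA, had log2 fold changes of -0.31 and -0.30. Of 37 interferon gamma response genes 3 lay higher (8.11%, against 7.25% of all genes) and 4 lower (10.8%, against 1.54%), and none passed the threshold. Without IL-1ß replicate 3, 5 lay higher (13.5%, against 14.9%) and 7 lower (18.9%, against 6.22%). With RLE size factors and all libraries 0 lay higher and 6 lower, beside 3.32% and 4.19% of all genes.

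Few genes tied to prostaglandin E2, which acts on macrophages through cAMP, separated the groups. Of 37 tested, 1 lay higher and 2 lower without overlap, and the list median was equal to that of all genes to 2 decimals. By RLE size factors 1 lay higher and 4 lower. Without IL-1ß replicate 3 the numbers were 2 and 4, and 2 and 8 with RLE, beside 9.51% of all genes higher and 10.9% lower with RLE in that setting, and the median was 0.08 below that of all genes. ARC, an immediate early gene, was at 18.1, 22.5 and 18.8 CPM with MSC-CM against 12.5, 8.33 and 12.2 CPM with IL-1ß alone. It differed by 0.81 ± 0.24 on the log2 scale (SE, limma, unadjusted p = 0.00566) and by 0.89 without replicate 3. It was higher still in untreated cells, at 39.1 to 69.5 CPM. CREM, a cAMP-responsive transcription factor, was lower, at 27.1, 26.7 and 35.9 CPM against 39.2, 36.8 and 38.8 CPM. PTGES, the inducible prostaglandin E synthase, was at 0.928, 1.88 and 1.10 CPM against 3.59, 2.6 and 2.25 CPM, with untreated cells at 0.953 to 1.92 CPM. PTGES differed by -0.73 ± 0.34 on the log2 scale (SE, limma, unadjusted p = 0.0513). Of the 23 enzymes and receptors of prostaglandins and leukotrienes, TBXAS1, thromboxane synthase, lay higher without overlap at a log2 fold change of 0.29, which did not hold with RLE size factors. CYSLTR2, a leukotriene receptor, lay lower at -0.19, beside PTGES, and without IL-1ß replicate 3 2 genes lay higher and 3 lower.

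Genes of alternative activation and resolution, a state often assigned to macrophages exposed to MSC products, showed no member higher without overlap. Of 33 tested, 0 lay higher and 3 lower (9.09%) without overlap, and 1 higher and 7 lower (21.2%) without IL-1ß replicate 3, beside 6.22% of all genes lower. The list median was 0.18 below that of all genes, or 0.11 below without replicate 3. GAS6 passed the unadjusted threshold only without that library, at 2.69, 1.05 and 3.00 CPM with MSC-CM against 7.64, 5 and 1.11 CPM. In the TGF-ß and BMP pathway 0 of 41 genes separated the groups with all libraries, and 3 lay lower with RLE size factors. Leaving out IL-1ß replicate 3, 1 lay higher and 4 lower, and 1 and 8 with RLE (beside 9.51% and 10.9% of all genes), and the list median went from 0.04 above to 0.13 below that of all genes. Of 12 growth factor genes 0 separated the groups with all libraries and 1 lay lower without replicate 3.

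Among 24 matrix proteases and their inhibitors, none passed the threshold. With all libraries 2 lay lower without overlap (8.33%, against 1.54% of all genes) and 0 higher. Without IL-1ß replicate 3, 5 lay lower (20.8%, against 6.22%) and 1 higher (4.17%, against 14.9%). With RLE size factors 4 lay lower and 0 higher, beside 4.19% and 3.32% of all genes. With RLE and without that replicate, 7 lay lower and 1 higher, beside 10.9% and 9.51%. MMP9, the gelatinase of activated macrophages, was at 9106, 7100.4 and 7419 CPM with MSC-CM and at 9759, 9470.2 and 10830.3 CPM with IL-1ß alone. The difference was -0.35 ± 0.15 on the log2 scale (SE, limma, unadjusted p = 0.0301) and -0.30 without IL-1ß replicate 3 (unadjusted p = 0.0943). TIMP2, an inhibitor of these enzymes, was lower by a like amount, at 173, 138 and 159.9 CPM against 186, 205 and 223 CPM. The ranges came close in both.

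Of 43 genes of the ATF4 response, 8 lay higher without overlap (18.6%, against 7.25% of all genes) and 1 lower, and the median was 0.07 above that of all genes. Without IL-1ß replicate 3 the numbers were 9 (20.9%, against 14.9%) and 2, and the median was 0.02 above. With RLE size factors 4 lay higher and 4 lower. SLC6A9, a glycine transporter, was the member past the threshold, at 12.6, 16.5 and 15.4 CPM against 9.26, 6.16 and 3.11 CPM, with untreated cells at 3.25 to 5.86 CPM. SLC6A9 had a log2 fold change of 1.23 ± 0.29 (SE, limma, unadjusted p = 0.000897) and 0.88 without IL-1ß replicate 3, under a fold of 2.

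Sterol and lipid genes differed little. Of 36 genes of cholesterol and fatty acid synthesis, 6 lay higher without overlap (16.7%) and 0 lower, and 8 and 1 without IL-1ß replicate 3. By RLE size factors none did in either direction with all libraries, and 3 lay higher and 2 lower without that replicate. SREBF1, the transcription factor of fatty acid synthesis, was at 157, 172 and 162 CPM with MSC-CM against 111, 130.4 and 126 CPM with IL-1ß alone, and at 56.3 to 74.7 CPM in untreated cells. Of 24 genes of cholesterol efflux and lipid handling, HILPDA and MSR1 lay lower without overlap, and LPCAT3 lay higher, which with all libraries did not hold with RLE size factors. Leaving out IL-1ß replicate 3 gave 1 higher and 3 lower. Among 42 glycolysis and hypoxia genes INSIG2 and PFKFB4 lay higher with all libraries, which did not hold with RLE size factors. The balance turned without IL-1ß replicate 3, with 3 higher and 6 lower (14.3%, against 6.22% of all genes). NDUFA4L2, a hypoxia-induced mitochondrial protein, lay lower, at 5.10, 3.68 and 4.21 CPM against 5.75, 7.66 and 8.89 CPM, a log2 fold change of -0.65 (limma, unadjusted p = 0.00697), and of -0.53 without IL-1ß replicate 3.

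Cell cycle genes were the list with the most members higher with MSC-CM, and none past the fold of 2. Of 75 tested, 21 lay higher without overlap (28%, against 7.25% of all genes) and 0 lower. Without IL-1ß replicate 3 the number was 35 (46.7%, against 14.9%) and 0 lower, and with RLE size factors 10, beside 3.32% of all genes, and 0 lower. A log2 fold change above 0 was found in 69 of the 75 members, compared with 8279 of the 11628 genes tested, and in 67 without replicate 3, compared with 6840. The list median was 0.15 above that of all genes and 0.17 without replicate 3. Centred on each gene's mean over the 9 libraries, the median log2 level of the list was -0.43, -0.34 and -0.26 in untreated cells. It was 0.13, 0.11 and -0.10 with IL-1ß alone and 0.24, 0.42 and 0.33 with MSC-CM. The MSC libraries were thus farther from untreated cells than the IL-1ß libraries were. PLK4, a kinase of centriole duplication, was at 31.8, 41.3 and 41.8 CPM with MSC-CM against 30.1, 29.3 and 13.1 CPM with IL-1ß alone (limma, unadjusted p = 0.0224). PRC1, of the mitotic spindle, was at 44.8, 60.7 and 53.5 CPM against 44.3, 40.8 and 26.0 CPM. In both, replicate 3 was far below the other IL-1ß libraries, and the log2 fold changes of 0.72 and 0.53 became 0.35 and 0.30 without it.

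T cell markers were also higher with MSC-CM when IL-1ß replicate 3 was left out. In that setting 5 of 10 markers lay higher without overlap, beside 14.9% of all genes, and the markers' median log2 fold change was 0.40. With all libraries 1 of the 10 did, beside 7.25% of all genes. The level plot by library shows T cell markers above zero in all MSC libraries and in IL-1ß replicate 3, while cell cycle genes were at their lowest of the 6 libraries in that replicate. NK cell markers summed to 291 to 352 CPM with MSC-CM and to 248, 282 and 493 CPM with IL-1ß alone, and B cell markers to 208 to 255 CPM and 173 to 220.2 CPM. The part of lymphocytes in the cell cycle difference was not tested, and in bulk RNA more cells of a type cannot be told apart from more RNA in each.

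**Figure D3:**
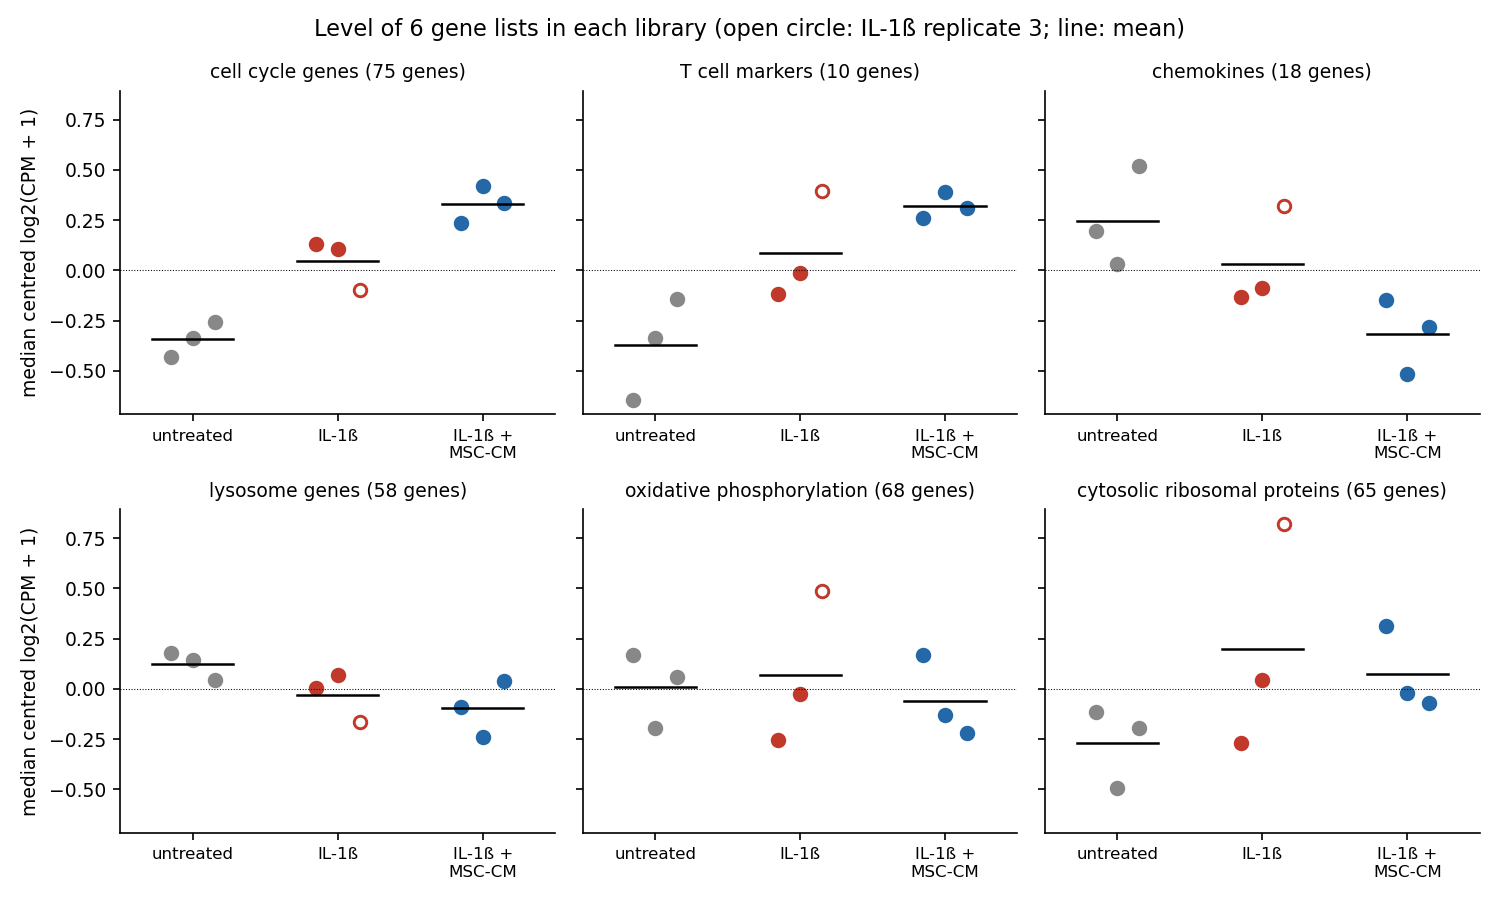
Level of 6 gene lists in each library, as the median over the list of log2(CPM + 1) centred on each gene's mean over the 9 libraries (vertical axis, log2 units). Points are libraries, the open circle is IL-1ß replicate 3 and lines are group means. Cell cycle genes lie higher in all MSC-CM libraries than in all IL-1ß libraries, and ribosomal protein, oxidative phosphorylation and T cell lists are highest in IL-1ß replicate 3.

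Of 58 lysosome genes tested, 1 lay higher and 2 lower without overlap, and without IL-1ß replicate 3 the numbers were 1 and 14 (24.1%, against 6.22% of all genes). With RLE size factors 10 lay lower and 1 higher, beside 4.19% and 3.32% of all genes. The list median was 0.26 below that of all genes with all libraries and 0.19 below without replicate 3. ATP6V0D1, a subunit of the proton pump that acidifies lysosomes, was at 232, 203 and 220.0 CPM against 251, 284 and 281 CPM, a log2 fold change of -0.32 ± 0.12 (SE, limma, unadjusted p = 0.0240) and -0.29 without IL-1ß replicate 3 (unadjusted p = 0.0507). PSAP, the precursor of saposins, was at 7280.3, 6149.9 and 7042 CPM against 7924, 8261 and 7872 CPM. MANBA, a mannosidase, was the gene that lay higher, at a log2 fold change of 0.34. Macrophage markers had a median log2 fold change of -0.21, and of -0.25 without replicate 3, where 3 of 12 lay lower without overlap and 1 higher. Their part in the lysosome difference was not tested.

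Of 16 complement genes 4 lay higher without overlap (25.0%) and 0 lower, beside 7.25% and 1.54% of all genes. Without IL-1ß replicate 3, 5 lay higher (31.2%) and 3 lower (18.8%), beside 14.9% and 6.22% of all genes. With RLE size factors 1 lay higher and 0 lower, beside 3.32% and 4.19% of all genes. CFB, a protease of the alternative pathway, was at 14.8, 18.0 and 15.6 CPM against 11, 10.1 and 13.2 CPM. C1S, a protease of the classical pathway, and ITGAM, a chain of complement receptor 3, had log2 fold changes of 0.33 and 0.40. These were 0.22 and 0.26 without IL-1ß replicate 3. Among 13 T helper cytokine genes only IL31 separated the groups with all libraries, lower with MSC-CM, and 2 genes lay lower without IL-1ß replicate 3. Ribosomal protein and oxidative phosphorylation genes depended on IL-1ß replicate 3. The median of 65 ribosomal protein genes was 0.28 below that of all genes with it and 0.15 above without it, and that of 68 oxidative phosphorylation genes 0.27 below and 0.03 above. Among these RPL36 lay lower, and SDHD and NDUFC1 higher, without overlap (1 oxidative phosphorylation gene higher and 1 lower with RLE size factors). Leaving out that library, 6 ribosomal protein genes lay higher and 1 lower, and 4 and 1 oxidative phosphorylation genes, shares higher below the 14.9% of all genes. By RLE size factors these numbers were 0 and 1, and 1 and 2.

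**Figure D4:**
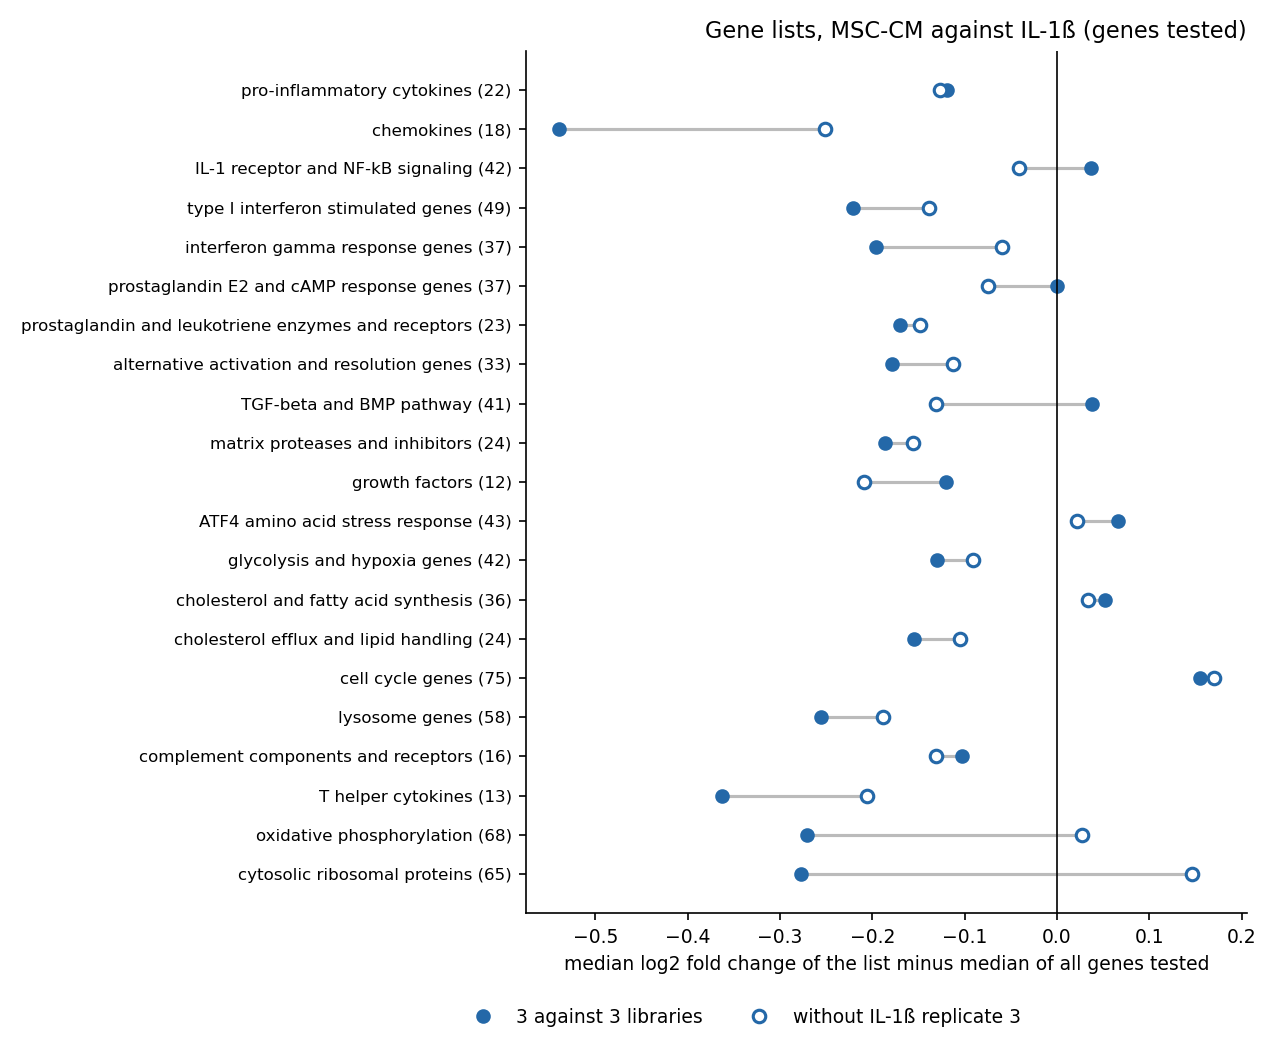
Median log2 fold change of each of 21 gene lists, MSC-CM against IL-1ß, minus the median of all genes tested (horizontal axis, log2 units), with all 6 libraries (filled) and without IL-1ß replicate 3 (open). Numbers in brackets are genes tested. Chemokines lie farthest below zero and cell cycle genes farthest above with all libraries, and ribosomal protein and oxidative phosphorylation genes change side without replicate 3.

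Cytokines, chemokines and prostaglandin E2 were also assayed in the supernatants of such cultures. Of 10 genes whose proteins were detected there, IL1B and IL6 passed the unadjusted threshold, CXCL10, CXCL1 and CXCL8 lay lower without overlap, and CCL5, TNF, IFNG, IL4 and IL10 overlapped between the groups. IL10, the anti-inflammatory cytokine, was at 10.8, 7.51 and 9.31 CPM with MSC-CM and at 8.56, 9.58 and 12.1 CPM with IL-1ß alone. IL10 differed by -0.12 on the log2 scale, with a 95% interval of -0.58 to 0.34, so a fold of 2 in either direction lay outside the interval. The same was true of IFNG, from -0.49 to 0.53, of IL4, from -0.77 to 0.15, and of TNF, from -0.44 to 0.73. TNF was at 34.4, 36.1 and 28.8 CPM against 39.4, 27.7 and 23.9 CPM. These intervals cover the spread between libraries only. They are on the log2(CPM + 1) scale, which understates changes of low genes such as IL4. DESeq2 gave IL4 a larger difference of -0.49 (unadjusted p = 0.0963).

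CCL5, the chemokine RANTES, was at 954, 653 and 547 CPM against 759, 842 and 1521 CPM, the highest of which was IL-1ß replicate 3. Its log2 fold change of -0.50 was -0.20 without that library. PTGS2, the inducible cyclooxygenase that begins prostaglandin E2 synthesis, varied widely, at 5, 8.97 and 14.3 CPM against 22, 13.3 and 4.56 CPM. The 95% interval of its difference, -1.62 to 0.95 on the log2 scale, held a fall of 2-fold as well as no change. The difference itself was -0.33, and it was -0.90 (-2.13 to 0.32) without IL-1ß replicate 3.

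**Figure D5:**
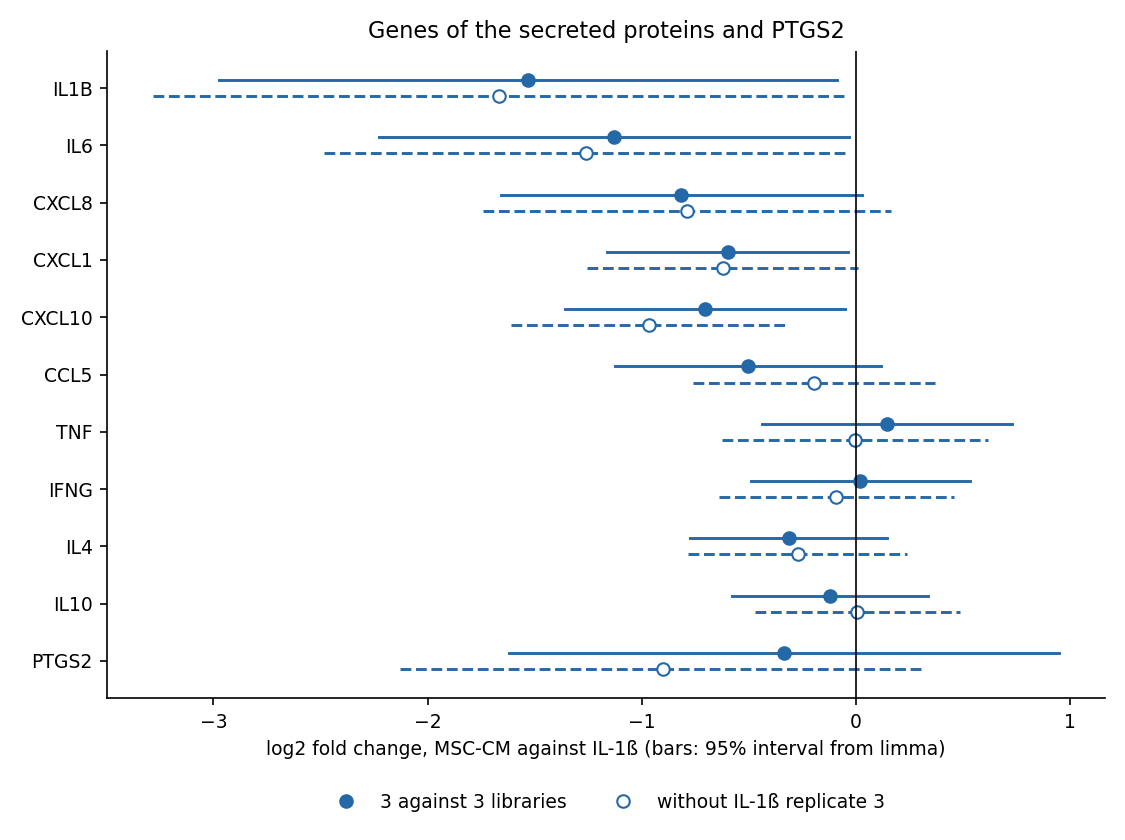
Log2 fold change, MSC-CM against IL-1ß (horizontal axis), of the genes of 10 secreted proteins and of PTGS2, with all 6 libraries (filled, solid bar) and without IL-1ß replicate 3 (open, dashed bar). Bars are 95% intervals from limma. The intervals of IL1B, IL6 and CXCL10 lie below zero in both settings, and those of TNF, IFNG, IL4 and IL10 include zero and lie within a fold of 2.

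Several genes that the text of the study names for MSC-CM were low or near the threshold. They were chosen by the study on these samples, so their direction here is not independent evidence. IL31, an itch-related T cell cytokine, was at 0.249, 0.154 and 0.468 CPM with MSC-CM and at 3.17, 1.21 and 1.59 CPM with IL-1ß alone, a mean 6.86-fold higher without MSC-CM. On the log2(CPM + 1) scale, which understates low genes, IL31 differed by -1.17 ± 0.60 (SE, limma, unadjusted p = 0.0745). The count tests gave larger differences, -2.93 in DESeq2 (unadjusted p = 8.72e-05) and -2.87 in edgeR (unadjusted p = 0.00343). RERG, a RAS-related growth inhibitor, was at 1.93, 2.75 and 3.65 CPM against 1.17, 0.622 and 0.830 CPM, and INKA2, an inhibitor of PAK4 kinase, at 1.79, 2.85 and 2.97 CPM against 1.28, 0.537 and 0.692 CPM. Their log2 fold changes of 1.00 (rounded up) and 0.95 were just short of a fold of 2 on that scale, while the ratios of mean CPM were 3.18 and 3.04. DESeq2 gave 1.49 (unadjusted p = 0.0361) for RERG and 1.43 (unadjusted p = 0.00896) for INKA2. IL17RA, a chain of the IL-17 receptor, overlapped, at 66.5, 86.9 and 98.0 CPM against 77.6, 72.7 and 29.1 CPM, and its log2 fold change of 0.58 was 0.14 without IL-1ß replicate 3. IL17RC overlapped too, at a log2 fold change of -0.41, and of -0.24 without IL-1ß replicate 3. ENSECAG00000015109 was at 0.747, 0.334 and 0.0936 CPM against 0.778, 0.593 and 3.84 CPM, so its difference lay in replicate 3.

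The media of the 3 MSC donors gave libraries that varied less than the IL-1ß group with all libraries. The median SD of a gene on the log2(CPM + 1) scale was 0.19 over the MSC libraries, 0.44 over the IL-1ß libraries, 0.18 over IL-1ß replicates 1 and 2 and 0.20 over the untreated libraries. MSC replicates 2 and 3 were the closest, with a median SD of 0.10, against 0.19 and 0.18 for the pairs with replicate 1. MSC replicate 1 held the lowest value of the 3 in 5804 of the 11628 genes. Its ribosomal protein sum was 52053 CPM, against 41619 and 40491 CPM in MSC replicates 2 and 3. Its medians against IL-1ß replicates 1 and 2 were 0.19 for the short and -0.24 for the long genes defined above. In MSC replicates 2 and 3 these medians lay between 0.06 and 0.13. IL-1ß replicate 3 differed in the same directions. The part of product donors and of such library measures in this spread was not tested. The widest ranges among MSC libraries were in ENSECAG00000037583, at 0.996, 8.72 and 1.29 CPM, in NFAT5, a transcription factor of the osmotic response, at 8.65, 39.0 and 26.7 CPM, and in MMP13, a collagenase, at 0.272, 4.11 and 1.24 CPM. NFAT5 ranged from 2.07 to 47.0 CPM over the IL-1ß libraries, with the lowest in replicate 3, and MMP13 from 0.367 to 2.73 CPM.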

How the data were processed

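TruSeq libraries of polyadenylated RNA covered 5 conditions, with 3 libraries per condition. The authors deposited the values in CPM. Partek Flow served for trimming (cutadapt), for alignment to EquCab3.0 by STAR 2.7.3 and for gene counting by HTSeq (Ensembl genes). Strand setting and gene filters are not given in the sources used here. All 15 columns matched a sample, with 0 unmatched. Depth was 28410735 to 47894072 reads on genes per library, recovered from the CPM steps: 100% of 231141 values up to 5000 reads were whole within 0.05 read.

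limma 3.58.1 was run on genes averaging 1 CPM or more (intensity trend, log2(CPM + 1), 1 model of 5 groups, Benjamini-Hochberg adjustment), so fold changes of low genes are understated. Spread was pooled over groups, PRP and ACS included. Alternatives were RLE and TMM scaling, no filter, a minimum of 10 reads per library, a pseudocount of 0.1, only the 6 libraries, a replicate block, DESeq2 1.42.0, edgeR 4.0.16 and leaving out each library; combinations without IL-1ß replicate 3 were chosen after seeing the data. Scripts were tested on simulated data.

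Members and all 21 gene lists and 10 marker lists were chosen with earlier results of these data known, and no list was tested as a set. Named genes were those past unadjusted p of 0.05 and a fold of 2 with and without IL-1ß replicate 3; in each list the members past in either setting or, where there were none, up to 3 with the largest change without overlap; genes the study names for MSC-CM; genes of the measured proteins; and genes called by a count test. Results of some genes that this rule names are not reported here.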

Additional observations from a re-analysis of the deposited data

How the results depend on the processing

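The number of genes past the adjusted threshold was 0 in limma under every alternative (without a filter 1 low gene had an adjusted p of 0.0175 at a fold under 2) and in edgeR, and 2 with DESeq2 on recovered reads (0 without IL-1ß replicate 3); leaving out each library gave 0 to 0. The number past the unadjusted threshold was 42, and it was 349 with DESeq2 (16927 genes), 188 with edgeR (13675 genes), 130 with a pseudocount of 0.1, 25 with only the 6 libraries, 25 with the replicate block, and, without IL-1ß replicate 3, 333 with DESeq2 and 227 with edgeR. Leaving out 1 library gave 14 (MSC replicate 2) to 901 (IL-1ß replicate 1), with 182 without IL-1ß replicate 2, 145 without MSC replicate 1 and 26 without IL-1ß replicate 3. Genes without overlap numbered 1022, and 1262 to 2804 with a library left out, where fewer libraries have to separate. Over all genes the median difference was 0.16 on the log2 scale, 0.000225 with RLE, 0.0126 with TMM, 0.0841 without a filter and 0.0457 (without IL-1ß replicate 3) to 0.217 with a library left out. The cause of the other changes was not tested.

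The deviations of same-numbered MSC and IL-1ß libraries correlated at -0.77, 0.32 and -0.54 across genes. Those of MSC replicate 1 and IL-1ß replicate 3 correlated at 0.77. With 3 libraries per group an outlying library shapes all of these values, so they cannot decide whether the replicate numbers pair the samples. Under the replicate block IL1B (unadjusted p = 0.057 by limma), IL6 and CD1A3 lost the unadjusted threshold. Of the 42 genes past the threshold with all libraries 0 changed sign in an alternative. Of the 15 past only without IL-1ß replicate 3, 5 did, among them FRRS1 and SSC5D without IL-1ß replicate 1, and TLX2 and TMEM91 there and, with all libraries, in DESeq2 (-0.46 and -0.55) and edgeR (-0.38 and -0.48).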

Other observations

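Low genes under the mean of 1 CPM were not tested by limma. C19orf71 had no read in any IL-1ß library and 16, 43 and 28 reads with MSC-CM, a mean level at least 23.7-fold higher than the 3 reads over the group that a count of 0 allows. Untreated libraries held 5, 39 and 26 reads. With all libraries the adjusted p was 0.0093 in DESeq2 and 0.794 in edgeR. TSACC, a chaperone partner of a testis kinase, had 41, 35 and 58 reads with MSC-CM, 5, 20 and 2 with IL-1ß alone and 29, 32 and 16 in untreated cells. SMC1B, a meiotic cohesin subunit, had 8, 5 and 3 reads with MSC-CM and 6, 13 and 19 with IL-1ß alone, so these groups overlapped.

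Dendritic cell markers summed to 421 to 463 CPM with MSC-CM and to 395 to 496 CPM with IL-1ß alone. Endothelial markers, mostly PECAM1, which macrophages also express, summed to 193 to 408 CPM and to 253 to 518 CPM. Neutrophil markers summed to 268 to 431 CPM and to 311 to 393 CPM, nearly all of it CSF3R, and erythroid markers to under 3 CPM in each library.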
